A study of Homo sapiens with 6 samples.

Results

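The overlap of H3T11ph with H3K27ac was examined inside PKM2 knockdown (PKM2-KD) MDA-MB-231 cells, a human triple-negative breast cancer line. The members were the rows (called regions) on chromosomes 1 to 22 of the H3T11ph and H3K27ac CUT&Tag peak lists from these cells, 35720 H3T11ph and 208488 H3K27ac regions, or 244208 of the 999395 regions in the 6 lists of the series. CUT&Tag cuts out and sequences DNA next to a bound antibody with a tethered transposase. The other 4 lists are NONO in NC (negative control) cells, NONO in NONO-KD cells, H3T11ph in NC cells and H3K27ac in NC cells, so there was 1 library per group and no replicate. The labels give the genotype only as PKM2 knockdown and do not say which silencing reagent was used, and a peak list does not show whether PKM2 protein or RNA was lowered. With 1 library per mark no p-value is given. Brackets hold 95% Wilson intervals for a share and Newcombe intervals for a difference, which cover counting error only.

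Phosphorylation of histone H3 at threonine 11 is placed by a few kinases, among which nuclear PKM2, the glycolytic pyruvate kinase isoform, is one that has been described. Acetylation of histone H3 at lysine 27 is laid down by the acetyltransferases EP300 and CREBBP, removed by histone deacetylases and read by bromodomain proteins. It marks active promoters and enhancers, where it often forms broad stretches. Both residues lie on the same histone tail. The study asked how NONO and both marks act together in gene transcription, and the comparison below asks where the H3T11ph regions listed in PKM2-KD cells lay relative to H3K27ac. Only 7.04% of these H3T11ph regions (2514 of 35720) overlapped an H3T11ph region of NC cells.

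A pair of promoters gives strong examples of regions with both marks. They are shown because, among H3T11ph regions at least 2 times the narrowest width that overlapped H3K27ac and lay within 1 kb of a gene end, the 5 of highest fold (summit enrichment over the local background of the library) included these 2 with a matching RefSeq promoter entry. Sequences are from RefSeq on GRCh38.p14 (hg38), run from 250 bases before to 50 after the start site and read 5′ to 3′ on the gene's strand, and capitals mark GC boxes (GGGCGG) and CCAAT boxes (CCAAT). The CEP120 window is chr5:123423354-123423653 on the minus strand, and the ZNF700 window is chr19:11924857-11925156 on the plus strand.
CEP120: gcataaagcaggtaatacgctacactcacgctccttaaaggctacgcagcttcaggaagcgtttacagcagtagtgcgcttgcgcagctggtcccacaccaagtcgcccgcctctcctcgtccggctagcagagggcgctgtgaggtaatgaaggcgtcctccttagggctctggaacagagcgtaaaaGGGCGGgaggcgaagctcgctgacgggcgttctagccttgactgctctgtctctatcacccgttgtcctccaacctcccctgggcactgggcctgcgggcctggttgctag
ZNF700: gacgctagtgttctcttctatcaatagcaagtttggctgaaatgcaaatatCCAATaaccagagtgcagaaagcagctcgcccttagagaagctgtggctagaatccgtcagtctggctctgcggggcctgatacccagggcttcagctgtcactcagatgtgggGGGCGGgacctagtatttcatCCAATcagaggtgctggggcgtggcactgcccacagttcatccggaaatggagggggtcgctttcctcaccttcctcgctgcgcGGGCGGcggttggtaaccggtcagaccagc
CEP120 encodes a centriole protein. Its H3T11ph region of 276 bp (chr5:123423346-123423621) had a fold of 140.6 and covered 268 of the 300 promoter bases, inside an H3K27ac region of 811 bp with a fold of 9.71. ZNF700 encodes a zinc finger protein. Its H3T11ph region of 220 bp (chr19:11924990-11925209) had a fold of 115.2 and covered 167 of the 300 bases, inside an H3K27ac region of 996 bp with a fold of 23.3. Neither H3T11ph region overlapped a region of the H3T11ph NC list. Both were picked for high fold and are not typical. All H3T11ph regions with H3K27ac had a median fold of 20.6 and a median width of 132 bp.

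H3T11ph regions were short and the H3K27ac regions far more numerous. The H3T11ph regions had a median width of 120 bp (quartiles 105 and 139) and covered 4.77 Mb, and the H3K27ac regions had width quartiles of 136 and 292 bp and covered 62.1 Mb. The narrowest H3T11ph region was 91 bp, and 2950 of 35720 regions (8.26%) reached 2 times that width. These are called wide and the other 32770 narrow. The lists give no read totals, so library depth is unknown here.

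About 1 H3T11ph region in 4 overlapped a region of the H3K27ac list from PKM2-KD cells, which is a separate library. Of the 35720 H3T11ph regions, 8712 overlapped an H3K27ac region by 1 bp or more, which was 24.4% (23.9 to 24.8). When the H3T11ph list was displaced along every chromosome by random distances (1000 circular shifts), the mean share was 3.34% (lowest 2.96, highest 3.69), so the listed positions overlapped 7.30 times as often as shifted ones. Shifts confined to 20 to 200 kb, which stay in the same neighbourhood, brought this ratio to 5.13. With the H3K27ac list cut to its 35720 strongest regions the share was 16.0% and the ratio 14.02. By chromosome the share ran from 16.1% on chromosome 4 to 34.9% on chromosome 19, and it was above the highest shifted value on all 22 chromosomes.

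Wide H3T11ph regions overlapped H3K27ac much more often than narrow ones. The share was 68.1% (66.4 to 69.7) of the 2950 wide regions and 20.5% (20.02 to 20.9) of the 32770 narrow ones, a difference of 47.6 points (45.8 to 49.3). After shifting the share was 3.22% for narrow and 4.67% for wide regions, so that the ratio to the shift mean was 6.35 for narrow and 14.6 for wide regions. Local shifts of 20 to 200 kb lowered the ratio of wide regions to 7.91 and that of narrow ones to 4.64, while equal list lengths raised them to 35.5 and 11.6. The step lay near the chosen width limit. With widths given in multiples of the narrowest region of 91 bp, the share was 18.7% (18.2 to 19.2) below 1.5 times, 26.8% (25.8 to 27.8) from 1.5 to below 2 times and 64.3% (62.2 to 66.5) from 2 to below 3 times. It was 72.1% (68.4 to 75.6) from 3 to below 4 times and 78.9% (74.9 to 82.5) from 4 times. A limit of 1.5 times therefore gave a smaller difference of 20.1 points.

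**Figure D1:**
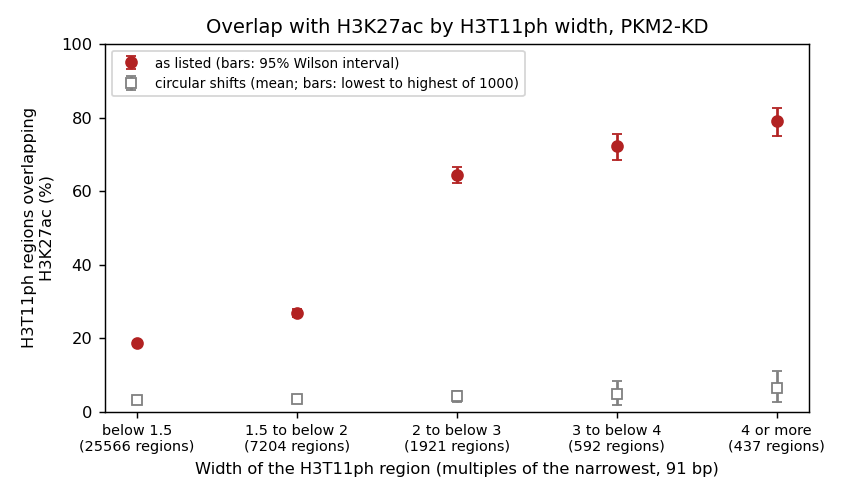
Share of H3T11ph regions in PKM2-KD cells that overlapped an H3K27ac region (y axis, percent) by width class of the H3T11ph region (x axis, multiples of the narrowest width, 91 bp). Filled points with 95% Wilson intervals rise from 18.7% below 1.5 times to 78.9% from 4 times, and open squares with the lowest to highest of 1000 circular shifts have means between 3.15% and 6.49%.

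Wide regions overlapped more often than narrow ones in each of the 5 classes of summit height compared. The pileup at the summit, the number of fragments or reads stacked there, was recovered from fold and p-value for 99.98% of the H3T11ph regions tried. The 393 regions with a −log10 p of 200 or more were not tried, and regions outside a pileup of 5 to below 160 were not compared. Among narrow regions the share with H3K27ac was 17.1% (15.8 to 18.6) at a pileup of 5 to 9, 14.5% (13.6 to 15.5) at 10 to 19 and 16.4% (15.8 to 17.1) at 20 to 39. It was 24.6% (23.8 to 25.4) at 40 to 79 and 59.6% (56.2 to 62.9) at 80 to below 160, so that among narrow regions the tallest stood apart. Among wide regions it was already 59.0% (53.1 to 64.7) at a pileup of 5 to 9 and reached 77.9% (74.4 to 81.1) at 80 to below 160. The intervals of narrow and wide regions did not overlap in any of the 5 pileup classes.

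**Figure D2:**
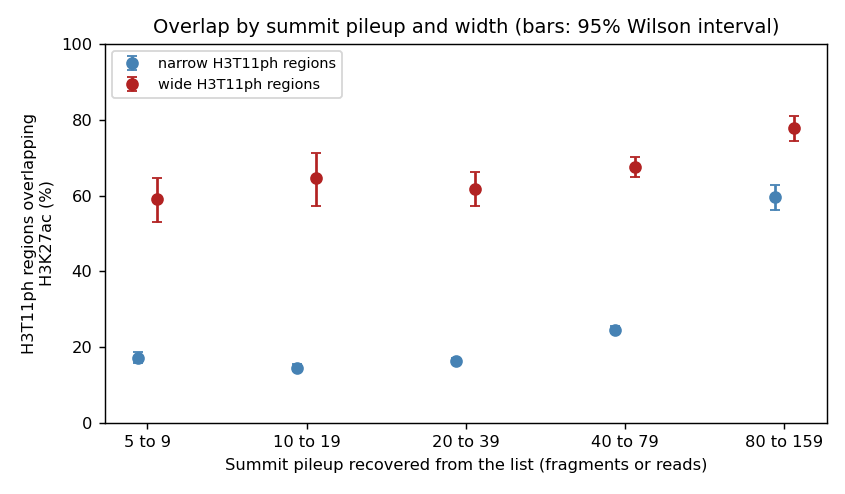
Share of H3T11ph regions overlapping H3K27ac (y axis, percent) by summit pileup (x axis, fragments or reads) for narrow (blue) and wide (red) regions, with 95% Wilson intervals. Wide regions lie between 59.0% and 77.9%, and narrow ones between 14.5% and 24.6% except in the tallest class, at 59.6%.

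H3T11ph regions with and without H3K27ac had close median folds and differed more in height. The median fold was 20.6 (quartiles 9.15 and 34.3) in the 8712 regions with H3K27ac and 21.4 (11.4 and 32.0) in the 27008 without. The median pileup was 41 (24 and 60) against 31 (18 and 45), and the median −log10 q was 50.9 against 43.2. Among wide regions the median fold was 18.5 with H3K27ac and 13.2 without. The quartile ranges overlapped in each of these comparisons.

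Place in the genome also went with the overlap. Near gene ends (midpoint within 1 kb of either end of a protein-coding gene) 57.4% (55.7 to 59.2) of 3116 H3T11ph regions overlapped H3K27ac, in gene bodies 23.3% (22.6 to 23.99) of 14778, and in intergenic sequence 19.5% (18.9 to 20.1) of 17826. Gene ends exceeded intergenic sequence by 37.9 points (36.1 to 39.8) and gene bodies by 34.1 points (32.3 to 35.99). The order of the ratios was the opposite. Shifted regions that landed near gene ends overlapped H3K27ac in 15.3% of cases, those landing in gene bodies in 3.802% and in intergenic sequence in 2.43%, so the ratios were 3.76, 6.13 and 8.04. With equal list lengths they were 4.67, 12.5 and 17.2, in the same order. Local shifts of 20 to 200 kb kept the order but brought them closer together, at 3.40, 4.69 and 5.22. In number, most overlapping regions were away from gene ends, with 1790 near gene ends, 3444 in gene bodies and 3478 intergenic.

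The difference between narrow and wide regions was smallest near gene ends. There 73.0% (69.2 to 76.5) of 571 wide and 53.9% (52.0 to 55.9) of 2545 narrow regions overlapped H3K27ac, a gap of 19.1 points (14.8 to 23.1). In gene bodies the shares were 71.1% (68.3 to 73.7) and 19.5% (18.9 to 20.2), a gap of 51.6 points (48.7 to 54.3). In intergenic sequence they were 63.4% (60.7 to 65.9) and 16.1% (15.5 to 16.6), a gap of 47.3 points (44.6 to 49.9). Wide regions thus varied by 9.67 points (5.09 to 14.05) between gene ends and intergenic sequence, and narrow regions by 37.9 points (35.9 to 39.9). Wide regions also lay near gene ends more often, with 19.4% (18.0 to 20.8) of them there against 7.77% (7.48 to 8.06) of narrow ones and 2.97% and 2.63% after shifting.

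**Figure D3:**
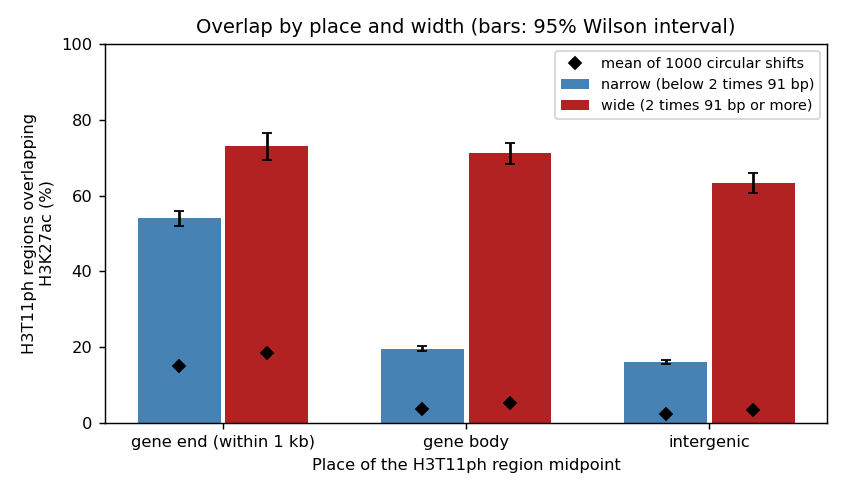
Share of H3T11ph regions overlapping H3K27ac (y axis, percent) near gene ends, in gene bodies and in intergenic sequence (x axis), for narrow (blue) and wide (red) regions, with 95% Wilson intervals. Black diamonds are the means of 1000 circular shifts, counted where the shifted regions landed, and the red bars stand between 63.4% and 73.0% in all 3 places.

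Start sites and the opposite ends of genes differed. The 15101 genes with a RefSeq promoter entry give the strand. Of 2188 H3T11ph regions within 1 kb of a start site, 65.3% (63.2 to 67.2) overlapped H3K27ac, against 26.9% of shifted regions that landed there. Of 498 regions near only the other end of a gene, 29.1% (25.3 to 33.3) did, against 5.42% of shifted ones. Start sites held 6.13% of the H3T11ph regions and 1.07% of shifted ones.

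Read from the side of acetylation, the share of regions holding H3T11ph was higher in broader H3K27ac regions, although most that held it were not of the broadest class (494 of 8080 were 2500 bp or more). Of the 208488 H3K27ac regions, 8080 (3.88%, 3.79 to 3.96) held at least 1 H3T11ph region. The share was 1.01% (0.954 to 1.07) of 116705 regions under 200 bp and 3.25% (3.12 to 3.39) of 66286 regions of 200 to below 500 bp. It was 12.1% (11.6 to 12.6) of 16679 regions of 500 to below 1000 bp, 28.2% (27.2 to 29.2) of 7922 regions of 1000 to below 2500 bp and 55.1% (51.9 to 58.4) of 896 regions of 2500 bp or more. Longer regions catch more shifted H3T11ph regions as well, and the ratios to the shift means were 2.78, 5.74, 11.2, 13.9 and 12.1 in that order. With local shifts the ratio of the broadest class was 7.67. The density of H3T11ph regions rose from 70.2 per Mb of H3K27ac sequence under 200 bp to 246.2 per Mb from 2500 bp. Within a width class the H3K27ac regions with H3T11ph had equal or somewhat higher median folds than the rest. These were 5.02 against 4.88 under 200 bp, 7.21 against 6.18 from 200 to below 500 bp and 11.7 against 10.8 from 500 to below 1000 bp. They were 18.4 in both sets from 1000 to below 2500 bp and 32.7 against 31.3 from 2500 bp.

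**Figure D4:**
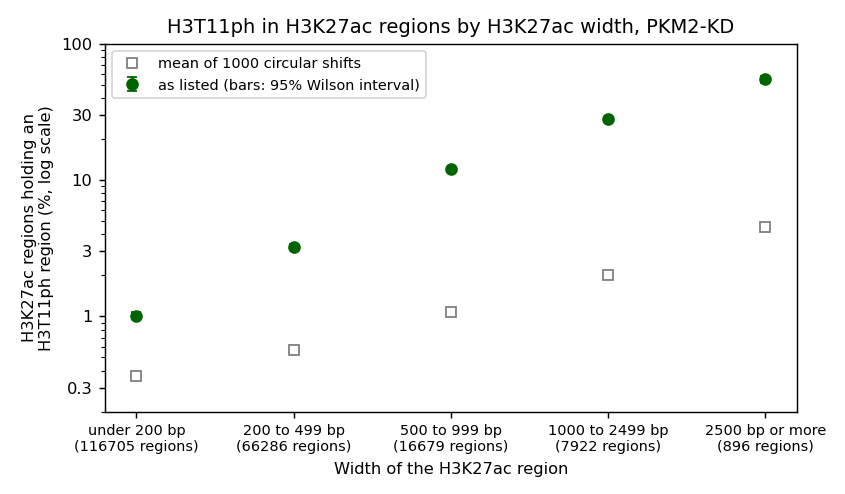
Share of H3K27ac regions in PKM2-KD cells that held an H3T11ph region (y axis, percent, log scale) by width class of the H3K27ac region (x axis, bp). Filled points rise from 1.01% under 200 bp to 55.1% from 2500 bp, and open squares, the means of 1000 circular shifts, from 0.364% to 4.57%.

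Wide H3T11ph regions were the most concentrated in broad acetylation. A wide region had its widest H3K27ac partner in the class under 200 bp 2.26 times as often as after shifting, and in the classes of 500 to below 1000, 1000 to below 2500 and 2500 bp or more 29.1, 45.5 and 59.2 times as often. For narrow regions these ratios were 2.81, 9.52, 12.3 and 12.5. Inside H3K27ac regions of 500 bp or more the H3T11ph summit lay between 0.25 and 0.75 of the length in 58.9% (57.5 to 60.2) of 5150 regions, against 50.1% after shifting, and in 62.6% (60.1 to 65.1) of the wide ones.

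H3T11ph regions that missed H3K27ac still lay closer to it than shifted ones. Of the 27008 without overlap, 5.54% (5.28 to 5.82) lay within 200 bp of an H3K27ac region, against 2.85% of the shifted regions without overlap. For the 942 wide ones this was 11.996% (10.1 to 14.2) against 2.85%. Only 1.47% (1.33 to 1.62) lay more than 100000 bp away, against 5.54% after shifting. Shifted regions can also land in stretches without any listed region, and those over 1 Mb came to 106.7 Mb. They were not removed for the distances, and how much of these differences they make up was not tested.

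Few H3K27ac regions held several H3T11ph regions. One H3T11ph region was held by 7507 of them, 2 by 490, 3 by 69, 4 by 11 and 5 by 2. A single H3K27ac region of 40106 bp (chr19:36269121-36309226), with no protein-coding gene end within 1 kb, held 27, of which 19 were wide. The folds of these 27 were low, from 2.26 to 7.45. Next came 5 regions in 5224 bp of H3K27ac inside ALDH3B1, an aldehyde dehydrogenase gene (chr11:68010059-68015282), with folds from 10.8 to 61.0, and 5 in 1904 bp on chromosome 17 (chr17:19160421-19162324). Regions of 2507 bp on chromosome 11 (chr11:73193294-73195800) and of 2542 bp inside VAV1, a guanine nucleotide exchange factor gene (chr19:6800673-6803214), held 4 each. Without the region of 40106 bp the overall share was 24.3%. It was kept in the values given above for H3K27ac regions of 2500 bp or more.

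At the level of genes, H3T11ph was found mostly at genes that also had H3K27ac. Of 19126 protein-coding genes, 3373 (17.6%) had an H3T11ph region within 1 kb of an end, 12538 (65.6%) an H3K27ac region, and 2015 (10.5%) an H3T11ph region there that overlapped H3K27ac. With wide H3T11ph regions alone, 524 genes had overlapping marks. A further 896 genes had both marks without overlap, and 462 had H3T11ph alone. H3T11ph was present at 23.2% (22.5 to 23.96) of genes with H3K27ac and at 7.01% (6.42 to 7.65) of genes without, a difference of 16.2 points (15.2 to 17.2).

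The kinases and the acetylation machinery were listed first. Over all genes, 17.6% had H3T11ph within 1 kb of an end, 65.6% had H3K27ac and 10.5% had overlapping marks. Among genes for H3T11 kinases, CHEK1, PKM and DAPK3 had no H3T11ph region near an end, and each had H3K27ac there. At PKM itself, which encodes the knocked-down kinase, 4 H3K27ac regions of up to 1103 bp lay near the ends, and 3 H3T11ph regions lay elsewhere in the gene, 2 of them overlapping H3K27ac. Of 9 acetyltransferase genes 2 had overlapping marks. EP300 had an H3T11ph region of 119 bp with a fold of 2.33 (chr22:41091538-41091656) and H3K27ac of 1162 bp, and KAT7 had one of 111 bp with a fold of 10.2 and H3K27ac of 866 bp. KAT6A had both marks apart, and KAT5, KAT8, KAT2A, KAT2B and CREBBP had H3K27ac near an end without H3T11ph there. Of 6 deacetylase genes, SIRT1 and SIRT2 had overlapping marks, with H3T11ph folds of 29.8 and 14.9. HDAC1, HDAC2, HDAC3 and SIRT6 had H3K27ac alone near an end. Among reader genes, BRD2 had 2 H3T11ph regions, with folds of up to 30.7, in H3K27ac of 4047 bp, BRD3 had both marks apart and BRDT had neither.

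Of 9 genes that the study lists as lowered by both knockdowns, 2 had overlapping marks, against 10.5% of all genes. Of these 9, 7 had H3K27ac, against 65.6% of all genes. The 9 genes were chosen by the study in these cells, so their counts are no independent evidence. MCAM, a cell adhesion molecule, had an H3T11ph region of 141 bp with a fold of 16.1 (chr11:119316178-119316318) and H3K27ac of 1456 bp. CCN2, a matricellular growth factor, had one of 93 bp with a fold of 12.2 (chr6:131951269-131951361) and H3K27ac of 894 bp. Within 1 kb of the gene ends used, RCN1 had both marks without overlap and VDAC1 had H3T11ph alone. There ADAMTSL4, FERMT2, IL11 and MATN2 had H3K27ac alone and CDKN1A had neither. Over the whole gene VDAC1 had 17 H3K27ac regions, and MATN2 had 2 H3T11ph regions, 1 of them overlapping H3K27ac. FERMT2 and CDKN1A had 1 H3T11ph region each over the whole gene, without overlap.

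Gene groups differed in how many members carried overlapping marks, against 10.5% of all genes. Cytosolic ribosomal protein genes had them in 29 of 80 cases (36.2%), and 79 of the 80 had H3K27ac. Of 17 glycolysis genes 7 had them. GAPDH had 3 H3T11ph regions in H3K27ac regions of up to 3924 bp, LDHA, the lactate-forming dehydrogenase, had 2 with folds of up to 44.5, and HK2, which starts glycolysis, had a wide one of 200 bp with a fold of 27.5. ALDOC and GPI had H3T11ph without H3K27ac near their ends, with folds of up to 57.2 and 39.1. Of 10 AP-1 transcription factor genes 4 had overlapping marks, namely JUN, JUNB, FOSL1 and FOSL2, with H3T11ph folds between 9.62 and 27.2 and H3K27ac regions between 1638 and 2949 bp. Of 8 cyclin genes only CCND1 did, with a fold of 16.7. None of 391 olfactory receptor genes, which are expressed mainly in the nose, had overlapping marks. Of them, 11 (2.81%) had H3T11ph and 74 (18.9%) had H3K27ac, against 17.6% and 65.6% of all genes.

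Cell type markers set the label beside the data. Counts are within 1 kb of a gene end, where 65.6% of all genes had H3K27ac and 10.5% had overlapping marks. Of 9 mesenchymal-type breast cancer markers all had H3K27ac and 2 had overlapping marks. VIM, the intermediate filament of mesenchymal cells, had an H3T11ph region of 597 bp with a fold of 9.9998 (chr10:17228262-17228858) in H3K27ac of 4394 bp, and the other was FOSL1. AXL had H3K27ac of 7322 bp near an end and an H3T11ph region there with a fold of 30.6 that missed H3K27ac, while 2 of the 3 H3T11ph regions of the whole gene overlapped H3K27ac. Of 10 luminal markers 6 had H3K27ac and none had overlapping marks. Their widest H3K27ac regions ranged from 125 bp at ESR1, the estrogen receptor, to 1934 bp at KRT19, a keratin, and ESR1 had 24 H3K27ac regions over the whole gene. Of 10 markers of other tissues 6 had H3K27ac, in regions no wider than 288 bp, and none had H3T11ph there. Over the whole gene PTPRC and GFAP had 2 H3T11ph regions each and CD3E and ALB 1 each, of which both at GFAP and the one at CD3E overlapped H3K27ac. The luminal and other-tissue shares with H3K27ac were near that of all genes.

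Near gene ends, the 5 H3T11ph regions of highest fold were picked separately within each class of width and H3K27ac overlap. Every class is therefore present by selection, and the fold ranges of the classes did not overlap. Besides CEP120 and ZNF700, the 5 wide ones with H3K27ac lay at ARRB2 (β-arrestin 2, fold 102.2), FRMD6 (a FERM domain protein, fold 98.5, in H3K27ac of 3231 bp with a fold of 327.1) and CLDND2 (fold 92.4), and these 3 overlapped an H3T11ph NC region. The 5 narrow ones with H3K27ac, at LARP4, NDUFAF4 and KLHL32, F2RL1, DNM1L (mitochondrial fission) and TMEM14B, had folds from 76.4 to 89.3. The 5 wide ones without H3K27ac were lower, from 45.9 to 51.4, at ROPN1L, CACNB1, GGTLC1, IFT140 and CRAMP1, and TCF7L2, a Wnt pathway transcription factor, and lay between 103 and 3950 bp from the nearest H3K27ac region. The 5 narrow ones without had folds from 66.3 to 74.8, at BCL2L11 (the cell death protein BIM), FSD1 and STAP2, TNFSF14, CPD and ZNF354B, and lay between 129 and 11809 bp away. None of the last 15 overlapped an H3T11ph NC region.

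Promoters with both marks were rich in CG. Of 15101 promoter windows of 300 bases, 1070 were touched by both marks, 340 by H3T11ph only, 5699 by H3K27ac only and 7992 by neither. The median number of CG dinucleotides was 27, 28, 26 and 14 in that order. At like CG content H3T11ph still went with H3K27ac. Among windows with 25 or more CG, 17.6% of those with H3K27ac and 7.32% of those without had H3T11ph, a difference of 10.3 points (8.74 to 11.8). Among windows with 0 to 4 CG these shares were 6.61% and 0.527%, a difference of 6.08 points (3.55 to 9.95).

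Of 9 short motifs searched on both strands, with overlapping matches allowed, the CCAAT box showed the widest gap between promoters with both marks and those with H3K27ac only. CCAAT was found in 45.7% of windows with both marks, 35.8% with H3K27ac only and 35.99% of all windows, a difference of 9.87 points (6.65 to 13.1) between the first 2. The GC box GGGCGG was found in 74.8%, 68.6% and 58.9%, a difference of 6.16 points (3.22 to 8.95), and the cAMP response element TGACGTCA in 5.33%, 3.79% and 2.65%, a difference of 1.54 points (0.233 to 3.12). For the TATA box (TATAAA), the AP-1 site (TGACTCA), the ETS site (CCGGAAG), the E-box (CACGTG), the TEAD site (GGAATG) and the YY1 site (AAGATGGC) the interval of the difference included 0. Windows with H3T11ph only held CCAAT in 49.4% and the GC box in 84.7% of cases, above those with both marks. They held the cAMP response element in 3.53%, below those with both marks. The CEP120 window printed above holds 20 CG and 1 GC box, and the ZNF700 window 14 CG, 2 CCAAT boxes and 2 GC boxes.

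H3T11ph regions with H3K27ac were found again in NC cells far more often than those without. Of the 8712 with H3K27ac, 20.6% (19.8 to 21.5) overlapped an H3T11ph NC region, against 2.65% (2.46 to 2.85) of the 27008 without, a difference of 18.0 points (17.1 to 18.9). Shift means, from 100 shifts here, were 0.538% and 0.435%. Within narrow regions the shares were 14.8% (13.997 to 15.7) and 1.85% (1.70 to 2.02), and within wide regions 40.1% (38.0 to 42.3) and 24.6% (21.98 to 27.5). The 26066 narrow regions without H3K27ac, the bulk of the list, were thus the ones least often found in NC cells. Regions with H3K27ac in PKM2-KD overlapped H3K27ac in NC in 69.9% (69.0 to 70.9) of cases, and those without in 8.03% (7.71 to 8.36) against 5.63% after shifting. The H3K27ac NC list had another form, with 79.1% of its regions at the narrowest width of 112 bp against 1.19% at 113 bp in PKM2-KD, and how this moved the shares was not tested.

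NONO regions were also overlapped more often by H3T11ph regions with H3K27ac. A NONO NC region was overlapped by 15.8% (15.1 to 16.6) of H3T11ph regions with H3K27ac and 3.68% (3.47 to 3.92) of those without, and a NONO-KD region by 8.47% (7.90 to 9.07) and 1.64% (1.49 to 1.79). Ratios to the shift means were 10.3 and 2.79 for NONO NC, and 17.3 and 4.07 for NONO-KD. The NONO NC list covered 24.7 Mb, with 94.5% of its regions at the narrowest width of 269 bp, and the NONO-KD list 5.85 Mb. The raw shares of the 2 lists are therefore not on 1 scale. Among wide regions the gap in NONO-KD was 3.06 points (0.196 to 5.76), and the ratio to shifted positions was 23.6 with H3K27ac and 24.4 without.

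**Figure D5:**
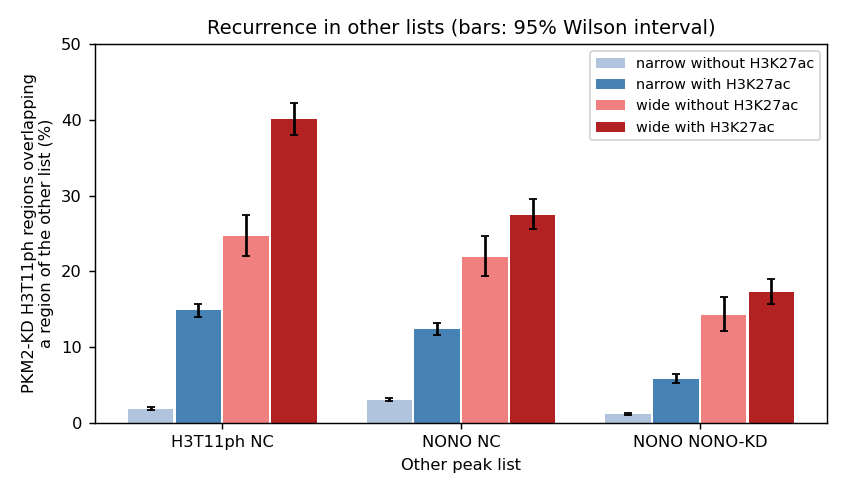
Share of PKM2-KD H3T11ph regions that overlapped a region of another list (y axis, percent) for H3T11ph NC, NONO NC and NONO-KD (x axis, 1 library each), split by width and by overlap with H3K27ac in PKM2-KD, with 95% Wilson intervals. In H3T11ph NC the bars stand at 1.85%, 14.8%, 24.6% and 40.1% from left to right.

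Of the lists set against H3K27ac of PKM2-KD cells, H3T11ph PKM2-KD had a higher share than H3T11ph NC and NONO-KD, and NONO NC was not set against it. Of 41692 H3T11ph NC regions, 19.9% (19.6 to 20.3) overlapped H3K27ac of PKM2-KD cells, a ratio of 5.62 to shifted positions. Of 43292 NONO-KD regions 10.7% (10.4 to 10.99) did, a ratio of 3.24. With wide regions defined alike in each list, from its own narrowest width, the shares were 54.6% (53.0 to 56.1) in H3T11ph NC and 38.3% (36.3 to 40.3) in NONO-KD, against 68.1% in H3T11ph PKM2-KD. The H3T11ph PKM2-KD regions overlapped H3K27ac of NC cells in 23.1% (22.7 to 23.6) of cases, 3.95 times the shift mean. Each list is 1 library, so differences between lists cannot be told apart from differences between libraries.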

How the data were processed

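MDA-MB-231 cells were profiled by CUT&Tag with antibodies against NONO, H3T11ph and H3K27ac, and 1 peak list per library was used. Per the labels, the submitters' processing notes name hg38, cutadapt 1.18, FastQC 0.11.9, SAMtools 1.3.1, MACS2 2.1.1.20160309 and DESeq2, without roles, and an aligner is not given in the sources used here. The authors deposited narrowPeak rows with a fold (a ratio of summit enrichment to background), −log10 p-values and q-values and a score. The score was not used for any result.

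Overlap was counted at 1 bp or more on chromosomes 1 to 22 with Python 3.11.15, numpy 2.4.6, pandas 2.3.3 and scipy 1.17.1. Circular shifts (1000, or 100 for the alternatives and the other lists and 200 for start sites) moved H3T11ph by at least 1 Mb along each chromosome up to its last listed base. They give a background of position and no p-value. Shifted regions were counted in the place where they landed. A region's place was that of its midpoint. Genes were RefSeq protein-coding genes on GRCh38.p14, whose gene table has no strand, and 15101 of 19126 had a promoter entry. Pileups were recovered from fold and −log10 p where the latter was below 200, with a tolerance of 0.002. The overlap counts were tested on simulated data.

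Named genes were the listed genes, the 5 regions of highest fold near gene ends in each of 4 classes of width and H3K27ac, and the 5 H3K27ac regions holding most H3T11ph regions. The GAPDH, LDHA, HK2, ALDOC, GPI, AP-1, cyclin and marker genes named come from further fixed lists and were picked after their values were seen. The regions, lists and limits were chosen with earlier results of these data known. Certain items are not reported here.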

Additional observations from a re-analysis of the deposited data

Results flagged for a closer look

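Chromosome X lay outside the comparisons above, and its share of overlap was near the lowest of chromosomes 1 to 22. Of 863 H3T11ph regions on chromosome X, 143 overlapped H3K27ac, or 16.6% (95% Wilson interval 14.2 to 19.2). On chromosomes 1 to 22 the lowest share was 16.1%, on chromosome 4. Of 47 H3T11ph regions on chromosome Y, 9 overlapped H3K27ac, or 19.1% (10.4 to 32.5). No shift mean is given for chromosome X or Y alone.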

How the results depend on the processing

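The ratios to the shift mean stayed above 1 and the gaps kept their sign under each alternative run. A share cannot fall below 0, so it has no direction to keep. The difference in median −log10 q had only 1 alternative, the wide regions, and kept its sign there. The difference in median fold did not keep its sign, with 20.6 with H3K27ac against 21.4 without in all H3T11ph regions and 18.5 against 13.2 in wide ones. The overall share was 21.7% at a −log10 q of at least 5 in both lists, 21.4% both with 50% of the H3T11ph region covered and with its summit inside H3K27ac, 16.0% with H3K27ac cut to the length of the H3T11ph list, 20.4% with H3K27ac regions at least 2 times the narrowest, and 23.5% with H3T11ph regions at or above the median fold. The ratio to the shift mean was, in the same order, 8.95, 9.28, 9.23, 14.02 and 10.4, with no move outside its interval for the median fold. It was 7.09 after removal of stretches over 1 Mb without a region and 5.13 with local shifts.

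The gap between wide and narrow regions was 41.8 points with 50% covered, 42.0 with summits, 37.2 with equal lists, 45.8 with wide H3K27ac regions, 52.1 above the median fold, 52.1 with a width limit of 3 times the narrowest and 20.1 with 1.5 times. The gap between gene ends and intergenic sequence was 32.9, 32.7, 26.0, 35.6 and 44.1 points under the first 5 of these, 29.2 with a window of 2.5 kb and 42.4 with 500 bp. The ratio for H3K27ac of 2500 bp or more was 13.0 at the stricter q and 7.67 with local shifts. Genes with overlapping marks numbered 524 with wide H3T11ph regions only. The gap in recurrence in H3T11ph NC was 15.9 points at the stricter q and 15.5 among wide regions, and the gap in median −log10 q was 15.9 among wide regions against 7.67 in all. Of the 116 further values run for the classes of width and place, 37 stayed inside their intervals, and the ratios ran from 3.40 to 35.5. The causes were not tested, except that fewer regions enter under the stricter limits. Leaving out the broadest H3K27ac region, chosen after seeing the data, moved no value of the overlap outside its interval.

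No paired analysis was possible because every mark has a single library in each cell state. With no replicate, differences between libraries cannot be told apart from differences between marks, and unlisted weak signal is not analysed here.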
